A study of Mus musculus with 15 samples.

Results

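The unfolded protein response genes described here are 32 genes of the endoplasmic reticulum (ER) stress pathway, taken by gene symbol from the 26823 named genes that both deposited tables list. All 32 were found in both tables and all 32 passed the filter on low counts, which kept 15789 genes. By role they are 15 ER chaperones and folding enzymes, 7 genes of ER-associated degradation, 5 stress sensors and transcription factors, and 5 targets of the transcription factors ATF4 and CHOP. Whole kidneys of 15 mice were sequenced, with 1 RNA library per mouse.

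The mice formed 3 groups of 5, all sacrificed at 4 months of age. The cFGF23-Hyp mice carry the Phex_KO genotype of the Hyp strain and received AAV-cFGF23, an adeno-associated virus that encodes the carboxy-terminal part of FGF23, by vein at 4 weeks of age, 3 months before they were killed. The Hyp mice carry the same Phex_KO genotype and received PBS. WT mice received PBS. Phex is an X-linked endopeptidase gene, and its loss raises FGF23, a hormone from bone that makes the kidney excrete phosphate. The cFGF23 fragment can block the receptor complex against the whole hormone. The sources used here do not give the promoter of the vector, or the sex and background strain of the mice.

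Secreted and membrane proteins fold in the ER with the help of chaperones. When unfolded proteins build up there, the sensors IRE1 (encoded by Ern1), PERK (Eif2ak3) and ATF6 signal to the nucleus through XBP1, ATF4 and cleaved ATF6. These factors raise the genes for chaperones and for ER-associated degradation, the route by which misfolded proteins are returned to the cytosol and destroyed. Sustained PERK signalling raises CHOP (Ddit3) and its targets. In the kidney the response is best known in tubule cells and podocytes under toxic or proteinuric injury.

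Many promoters of ER chaperone genes hold the ER stress element (ERSE), which ATF6 and XBP1 bind together with the CCAAT factor NF-Y. It was searched as CCAAT and CCACG with any 9 bases between them, on both strands, in RefSeq windows of build GRCm38.p6 that run from 250 bases before to 50 bases after the start of a gene. A related element, ERSE-II, was searched as ATTGG and CCACG with any 1 base between them, a motif added after the first windows had been read. Of the 32 members, 28 matched a window, and Atf6, Derl1, Hyou1 and Manf did not. The window of Pdia3, the member with the smallest p in Hyp against WT, held neither element in this exact form. The windows of 5 members that hold a match are shown here 5′ to 3′ on the strand of the gene, with each match in capitals. Those of Hspa5 (chr2:34771840-34772139, plus strand), Hsp90b1 (chr10:86705395-86705694, minus strand) and Creld2 (chr15:88819396-88819695, plus strand) hold ERSE, and Hsp90b1 holds it at 2 sites. Those of Herpud1 (chr8:94386179-94386478, plus strand) and Dnajb11 (chr16:22857595-22857894, plus strand) hold ERSE-II.
Hspa5: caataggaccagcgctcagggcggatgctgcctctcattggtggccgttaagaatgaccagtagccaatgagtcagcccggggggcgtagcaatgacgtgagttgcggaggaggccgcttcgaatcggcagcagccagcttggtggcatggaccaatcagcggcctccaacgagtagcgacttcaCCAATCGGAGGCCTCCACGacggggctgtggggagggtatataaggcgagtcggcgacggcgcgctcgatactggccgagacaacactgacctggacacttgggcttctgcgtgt
Hsp90b1: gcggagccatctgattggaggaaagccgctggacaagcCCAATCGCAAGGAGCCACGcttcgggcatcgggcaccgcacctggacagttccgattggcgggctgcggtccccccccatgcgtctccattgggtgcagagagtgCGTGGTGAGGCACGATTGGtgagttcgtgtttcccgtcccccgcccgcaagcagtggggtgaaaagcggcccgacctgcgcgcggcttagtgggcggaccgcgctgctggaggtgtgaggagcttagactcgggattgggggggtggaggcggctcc
Creld2: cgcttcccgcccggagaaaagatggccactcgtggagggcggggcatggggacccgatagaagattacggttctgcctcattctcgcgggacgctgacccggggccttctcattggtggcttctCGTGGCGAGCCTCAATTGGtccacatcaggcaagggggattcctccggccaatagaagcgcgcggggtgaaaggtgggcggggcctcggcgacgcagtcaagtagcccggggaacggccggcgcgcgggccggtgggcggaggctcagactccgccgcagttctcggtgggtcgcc
Herpud1: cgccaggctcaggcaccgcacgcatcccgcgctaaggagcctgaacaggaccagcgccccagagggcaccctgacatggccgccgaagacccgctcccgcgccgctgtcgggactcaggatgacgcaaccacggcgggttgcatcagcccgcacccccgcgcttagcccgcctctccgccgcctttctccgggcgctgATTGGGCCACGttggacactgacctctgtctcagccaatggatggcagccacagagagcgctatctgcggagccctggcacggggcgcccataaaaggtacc
Dnajb11: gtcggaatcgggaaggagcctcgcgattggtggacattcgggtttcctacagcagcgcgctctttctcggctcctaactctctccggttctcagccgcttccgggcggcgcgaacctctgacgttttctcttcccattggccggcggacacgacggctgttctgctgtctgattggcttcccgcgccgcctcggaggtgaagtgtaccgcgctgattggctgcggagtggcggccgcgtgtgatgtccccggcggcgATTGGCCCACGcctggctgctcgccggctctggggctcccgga
The matches began 65 bases before the start in Hspa5, 126 bases before it in Creld2 (on the minus strand of the window) and 52 bases before it in Herpud1. In Dnajb11 the match began 7 bases after the start.

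ERSE was found in 9 of the 28 members with a window (32.1%), against 39 of all 32851 windows in the table (0.119%). The other 6 of these genes are the chaperone genes Calr, Canx, Pdia6 and Dnajc3 and the degradation genes Derl3 and Syvn1. Their sites are shown in the direction of the motif, from build GRCm38.p6, with the conserved parts in capitals and the 9 bases between them in lower case.
Calr: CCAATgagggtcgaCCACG
Derl3: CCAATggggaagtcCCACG
Canx: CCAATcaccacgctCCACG
Pdia6: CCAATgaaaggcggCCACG
Dnajc3: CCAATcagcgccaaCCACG
Syvn1: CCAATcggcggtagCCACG
ERSE-II was found in 2 of the 28 members (7.14%), against 12 of all windows (0.0365%), and no member window held both. The core of the UPR element bound by XBP1 (TGACGTGG, both strands) was in 0 of the 28 and in 0.676% of all windows. The C/EBP-ATF element read by ATF4 and CHOP (TGATGCAAT, both strands) was in 0 of the 28 and in 0.192% of all windows. The UPR and C/EBP-ATF elements were each searched as 1 exact sequence, without variants. A count of 0 therefore does not show that the members lack them. ERSE was defined on promoters of chaperone genes, some of them members here, and ERSE-II was added after the first windows had been read. The shares therefore describe the set and were not tested. The level of the 11 members with either element spanned a median 1.81-fold between the highest and lowest of the 15 libraries (1.27 to 5.66). In the 17 members with a window but neither element the span was a median 1.68-fold (1.38 to 9.46).

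Total counts ran from 13083190 to 21829906 per library. Phex had 0 to 3 counts in every library, so its level did not check the genotype labels. The library labelled WT_5 is WT by title, but its genotype label reads Phex_KO and its cell type label Hyp. Synpr, of synaptic vesicles, was chosen for this check from its values: WT_5 had 0.542 CPM, against 21.8 to 40.6 CPM for the other 4 WT libraries. It was at 42.0 CPM in cFGF23-Hyp_5, against 0.276 to 2.94 CPM in the other cFGF23-Hyp libraries and 0.303 to 1.29 CPM in Hyp. The library cFGF23-Hyp_3 had a lower share of mitochondrial counts (6.63%) and fewer detected genes (20444) than any other. These 3 libraries were kept in the groups of their titles, and member calls and group overlaps are also given without them. Spreads within groups, scores and summed marker levels are given with all 15 libraries only. Kidney markers fitted the tissue label: Kap, Slc34a1, Umod and Lrp2, which mark tubule segments, were at 1706 CPM or above in every library. Of 4 pancreatic acinar genes listed in both tables, Cpa1, Cpb1 and Ctrb1 were at 0 in 10 to 12 libraries. The fourth, the elastase gene Cela1, was at 28.6 CPM or above in every library and highest in cFGF23-Hyp_3 (116.6 CPM). Genes of a liver list were mixed. Cyp2e1 was at 1954 to 3474 CPM, Ttr at 44.3 to 1853 CPM and Alb at 3.13 to 39.0 CPM, while Fgb and Ahsg were at 0 in 8 and 7 libraries.

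The members covered a wide range of levels. Per kilobase of the gene length that the authors list, the highest median level over the 15 libraries was that of the calcium-binding lectin chaperone Calr (319 CPM per kb). Next came the disulphide isomerases P4hb (254 CPM per kb) and Pdia3 (187 CPM per kb) and the ER Hsp70 Hspa5, also called BiP (162 CPM per kb). Herpud1, an adaptor of the degradation complex, had 121 CPM per kb. Canx, the membrane-bound partner of calreticulin, and Hsp90b1, the ER Hsp90 also called GRP94, were at 111 and 110 CPM per kb. At the other end stood 3 genes: Derl3, a channel component found mainly in secretory tissues (0.649 CPM per kb), Chac1, which breaks down glutathione (0.508), and Trib3, a pseudokinase induced by CHOP (0.339).

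Setting Hyp beside WT asks whether loss of Phex goes with an altered ER stress programme in the kidney. No member passed the test in either direction (0 of 32 at an adjusted p below 0.05 in edgeR's quasi-likelihood test, Benjamini-Hochberg adjusted over 15789 genes), and DESeq2 and limma-voom also called 0. Over all genes, 0.177% were called higher and 0.165% lower. At an unadjusted p below 0.05, 3 of 32 members had negative and 0 had positive log2 fold changes, against 5.85% of all genes lower and 7.51% higher. No member had Hyp and WT ranges that did not overlap, against 2.91% of all genes higher and 2.84% lower. In whole kidney, fewer cells of a type and less RNA per cell cannot be told apart.

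The ER chaperones and folding enzymes lay lower in Hyp as a set of estimates. All 15 had a negative log2 fold change, between -0.56 (Creld2) and -0.06 (Dnajc3), with a median of -0.23, while the median over all genes was 0.00 and 50.6% of them were positive. All 15 stayed negative in each of the 26 settings run, the fit described here included, with medians from -0.35 (without Hyp_3) to -0.12 (without WT_4). The 15 genes varied together from mouse to mouse, so the shared sign is not 15 separate observations.

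Pdia3 (ENSMUSG00000027248, chromosome 2, 121244256 to 121269168, plus strand, as the deposited tables list it, in positions that do not match GRCm38), an isomerase that works with calnexin and calreticulin on glycoproteins, had the smallest p of the members in Hyp against WT. It stood at 486, 570.2, 650.3, 588 and 653 CPM in cFGF23-Hyp_1 to cFGF23-Hyp_5, at 542, 527, 606, 553 and 524 CPM in Hyp_1 to Hyp_5, and at 617, 743, 664, 813 and 580.2 CPM in WT_1 to WT_5. The highest Hyp library lay above the lowest WT library, WT_5, and below the other 4. Pdia3 averaged 550.5 ± 33.0 CPM in Hyp and 684 ± 94.7 CPM in WT (SD, n = 5 each), a log2 fold change of -0.31 ± 0.10 (SE, adjusted p = 0.188). The authors' deposited table lists a log2 fold change of -0.32 and an adjusted p of 0.0155 for Pdia3, the 1 member below 0.05 there, where 4.73% of the listed genes are. Their table of cFGF23-Hyp against Hyp lists 0 members below 0.05, against 0.334% of its genes.

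Dnajb11 (ENSMUSG00000004460, chromosome 16, 22676595 to 22698384, plus strand in the tables) encodes the co-chaperone that hands substrates to BiP. It was at 115, 119, 169, 119 and 119 CPM in cFGF23-Hyp_1 to cFGF23-Hyp_5, at 121, 114, 138, 123 and 116 CPM in Hyp, and at 143, 165, 136, 194 and 119 CPM in WT. WT_5 was again the lowest WT library, and it lay within the Hyp range with WT_3. The log2 fold change of Hyp against WT was -0.31 ± 0.13 (adjusted p = 0.304).

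Hspa5 (ENSMUSG00000026864, chromosome 2, 34661982 to 34667559, plus strand in the tables) encodes the chaperone that keeps the sensors inactive in unstressed cells. It spanned 2.39-fold between the highest and lowest of the 15 libraries. It stood at 629, 685, 865, 809 and 577 CPM in cFGF23-Hyp_1 to cFGF23-Hyp_5, at 729.7, 577, 1052, 582 and 661 CPM in Hyp, and at 611, 987, 874, 1378 and 668 CPM in WT. WT_4 was highest of all 15 and Hyp_3 next, and the groups overlapped over most of their range. The log2 fold change of Hyp against WT was -0.33 ± 0.21 (adjusted p = 0.522). Hsp90b1 had -0.29 ± 0.14 (adjusted p = 0.391) and Hyou1, a nucleotide exchange factor for BiP, -0.21 ± 0.19 (adjusted p = 0.657).

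Creld2, Sdf2l1 and Manf encode small ER proteins that stress induces strongly in mouse cells. Creld2 stood at 45.8, 52.4, 96.6, 54.5 and 44.1 CPM in cFGF23-Hyp_1 to cFGF23-Hyp_5, at 57.0, 43.4, 90.4, 40.0 and 48.2 CPM in Hyp, and at 43.1, 82.1, 74.1, 147 and 65.8 CPM in WT. In each group 1 mouse stood far above the rest: cFGF23-Hyp_3, Hyp_3 and WT_4. Its log2 fold change of Hyp against WT was -0.56 ± 0.30 (adjusted p = 0.428), that of Sdf2l1 -0.48 ± 0.26 (adjusted p = 0.440) and that of Manf -0.29 ± 0.34 (adjusted p = 0.752). These were among the least precise estimates of the chaperones. Canx (-0.14 ± 0.07) and P4hb (-0.14 ± 0.09) were the most precise, with adjusted p of 0.436 and 0.506.

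**Figure D1:**
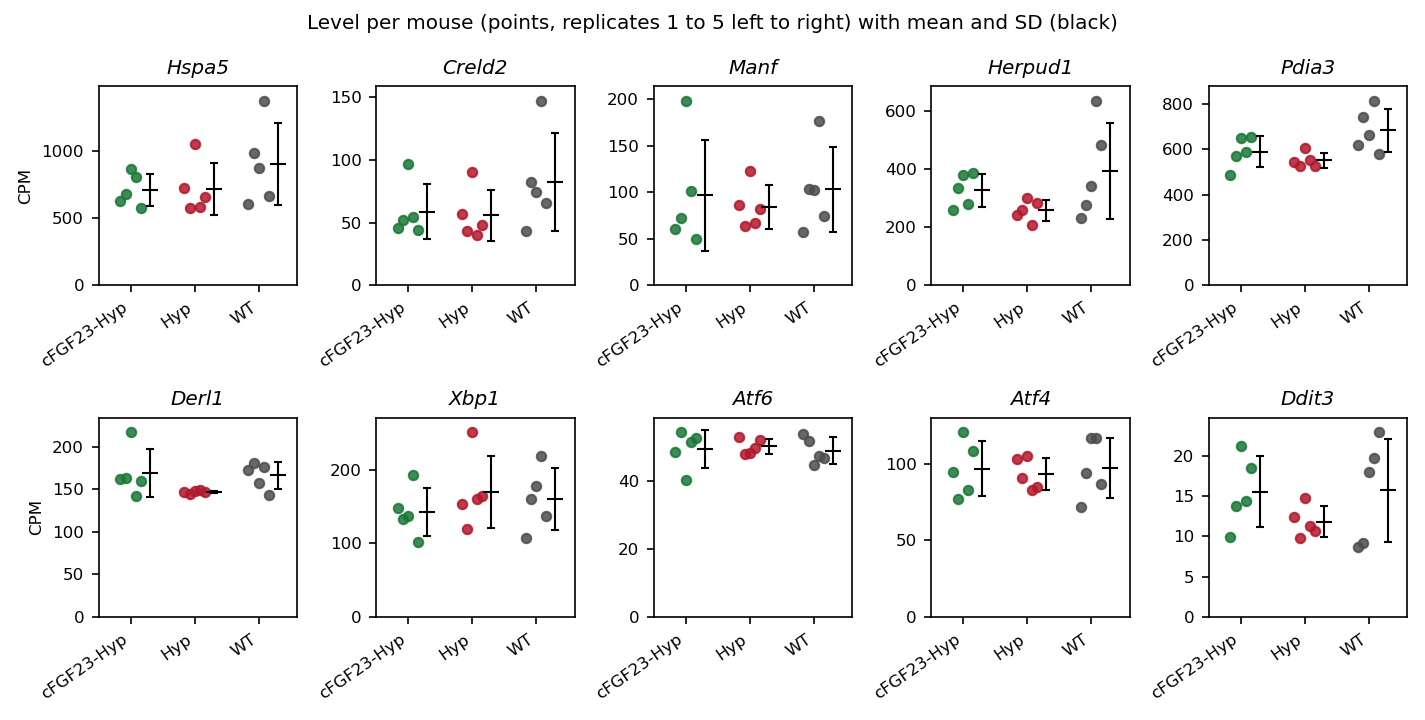
CPM (vertical axis, from 0) of 10 members in each mouse, with groups along the horizontal axis, replicates 1 to 5 from left to right as points, and the mean and SD in black. The groups overlap in every panel, and WT_4 is the highest WT point for Hspa5, Creld2 and Manf.

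Among the 7 degradation genes, 6 had negative log2 fold changes in Hyp against WT (median -0.18), and Sel1l, the scaffold of the degradation ligase, had 0.02 ± 0.10 (adjusted p = 0.952). Herpud1 (ENSMUSG00000031770, chromosome 8, 95113066 to 95122005, plus strand in the tables) varied most among the abundant ones. It was at 258, 335, 378, 279.5 and 384 CPM in cFGF23-Hyp_1 to cFGF23-Hyp_5, at 241, 259, 299.6, 208 and 283 CPM in Hyp, and at 230.4, 275, 342, 634 and 482 CPM in WT. The WT libraries WT_4 and WT_5 exceeded every other library, while WT_1 and WT_2 lay within the Hyp range. Its log2 fold change was -0.61 ± 0.22 (adjusted p = 0.248).

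Derl1, a membrane channel component of the degradation route, was at 162, 164, 217, 143 and 159.7 CPM in cFGF23-Hyp_1 to cFGF23-Hyp_5, at 147, 145, 148, 149 and 147 CPM in Hyp, and at 173, 181, 158, 177 and 143 CPM in WT. The Hyp mice lay within a few CPM of one another and only WT_5 of the WT mice was not above them. Derl1 had a log2 fold change of -0.18 ± 0.10 in Hyp against WT (adjusted p = 0.439), and Derl2, its paralog, -0.18 ± 0.11 (adjusted p = 0.514). Syvn1, the ubiquitin ligase HRD1, had -0.15 ± 0.15 (adjusted p = 0.678), and Edem1, which sorts misfolded glycoproteins for disposal, -0.12 ± 0.09 (adjusted p = 0.566). Derl3 had -0.63 ± 0.39 at a level of 0.610 to 3.45 CPM (adjusted p = 0.506).

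The sensors and transcription factors differed little in Hyp against WT, with 4 of 5 log2 fold changes positive and a median of 0.07. Ern1 was at 34.2, 26.7, 22.7, 23.0 and 27.7 CPM in cFGF23-Hyp_1 to cFGF23-Hyp_5, at 28.8, 25.1, 28.0, 32.03 and 26.7 CPM in Hyp, and at 26.9, 23.0, 22.8, 22.4 and 25.1 CPM in WT. Its Hyp and WT ranges overlapped in WT_1 and WT_5, and its log2 fold change was 0.23 ± 0.11 (adjusted p = 0.380). Atf6 averaged 50.3 ± 2.23 CPM in Hyp and 49.0 ± 3.85 CPM in WT (SD, n = 5 each; log2 fold change 0.04 ± 0.08, adjusted p = 0.873). Eif2ak3 had 0.07 ± 0.09 (adjusted p = 0.795) and Atf4 -0.06 ± 0.14 (adjusted p = 0.884). Xbp1 was at 148, 133, 137, 192 and 102 CPM in cFGF23-Hyp_1 to cFGF23-Hyp_5, at 154, 119.5, 251, 160.2 and 165 CPM in Hyp, and at 107, 159.6, 178, 218 and 137 CPM in WT. Hyp_3 was the highest of all, and the log2 fold change was 0.09 ± 0.21 (adjusted p = 0.883). Counts per gene do not separate spliced from unspliced Xbp1, nor cleaved from intact ATF6, so these levels say nothing of sensor activity.

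The ATF4 and CHOP targets were low and variable, with 2 of 5 log2 fold changes positive in Hyp against WT (median -0.06). Ddit3 was at 9.88, 13.8, 21.2, 14.4 and 18.5 CPM in cFGF23-Hyp_1 to cFGF23-Hyp_5, at 12.4, 9.84, 14.8, 11.3 and 10.7 CPM in Hyp, and at 8.70, 9.17, 18.04, 19.7 and 22.9 CPM in WT. The WT mice lay on both sides of the Hyp range, and the log2 fold change was -0.42 ± 0.26 (adjusted p = 0.498). Asns, asparagine synthetase, ranged from 4.20 to 9.58 CPM in Hyp and from 3.35 to 8.70 CPM in WT (0.14 ± 0.31, adjusted p = 0.876). Chac1 ranged from 0.552 to 1.46 CPM in Hyp and from 0.216 to 2.04 CPM in WT (-0.17 ± 0.48, adjusted p = 0.899). Trib3 had -0.06 ± 0.33 (adjusted p = 0.951). Ppp1r15a, whose product GADD34 ends the translation block set by PERK, had 0.07 ± 0.22 (adjusted p = 0.910).

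The fit without WT_5, cFGF23-Hyp_5 and cFGF23-Hyp_3 called 3 members lower in Hyp than in WT. Pdia3 had -0.37 ± 0.09 (adjusted p = 0.0207), Dnajb11 -0.39 ± 0.09 (adjusted p = 0.0219) and Derl1 -0.23 ± 0.06 (adjusted p = 0.0245). These were 3 of 32 members, where 5.22% of 16196 genes were called lower. Without WT_5 and cFGF23-Hyp_5 alone, 0 members were called lower and 0.73% of all genes were. There Pdia3 had -0.37 ± 0.10, Dnajb11 -0.39 ± 0.13 and Derl1 -0.23 ± 0.10. The library cFGF23-Hyp_3 is in neither group of this comparison, and leaving it out as well hardly moved these estimates. It lowered their SEs, through the spread that the 3 groups share in the fit. Without WT_5 and cFGF23-Hyp_5, Canx, Pdia3, Derl1 and Derl2 had Hyp libraries that all lay below all WT libraries. These were 4 of 32 members, against 7.06% of all genes. The same 4 genes did so without the 3 libraries, against 6.97% of all genes. WT_5 had the lowest CPM of its group in 13 members and WT_1 in 12, with the shares over all genes not counted.

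**Figure D2:**
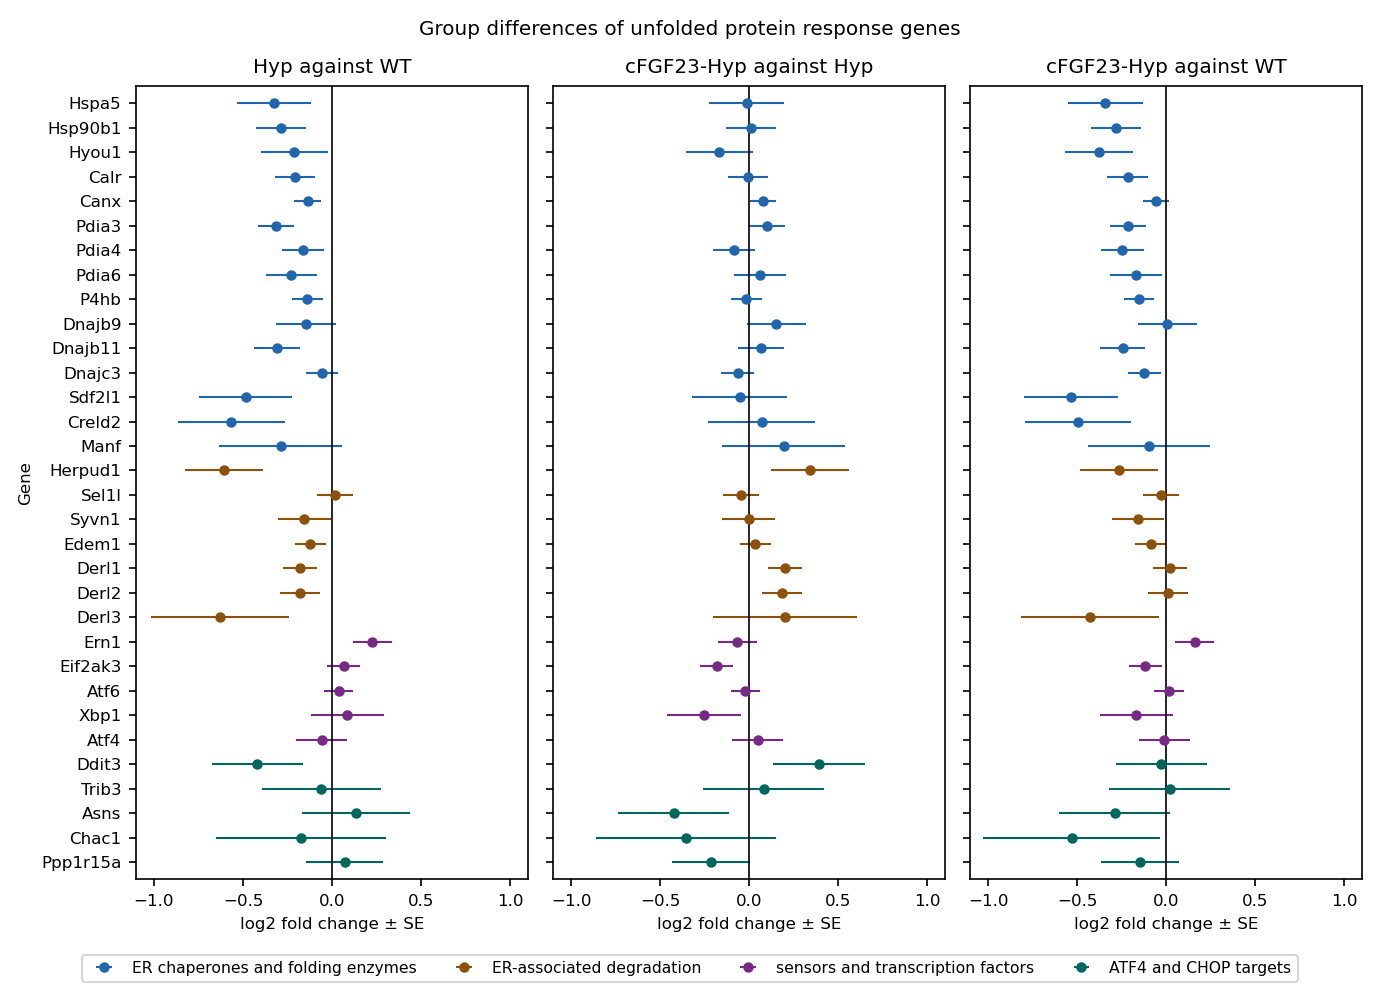
Log2 fold change with its SE (horizontal axis) of the 32 members (rows, coloured by role) in 3 panels, one for each comparison. All 15 chaperones lie left of 0 in the first panel and 14 of 15 in the third, while 8 of 15 lie right of 0 in the middle one.

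Setting cFGF23-Hyp beside Hyp asks what the vector changes in mice without Phex. No member passed the test (0 of 32), and 0% of all genes were called higher and 0% lower. Of the 32 members, 16 had positive and 16 negative log2 fold changes, with a median of 0.00 (0.01 over all genes). At an unadjusted p below 0.05 there were 0 members, against 5.36% of all genes higher and 5.07% lower, and DESeq2 and limma-voom called 0. Groups that did not overlap were found in 0 members, against 0.874% of all genes higher and 0.963% lower. Of the 15 chaperones, 8 were positive (median 0.01). Hspa5 averaged 713 ± 121 CPM in cFGF23-Hyp and 720.4 ± 196 CPM in Hyp (SD, n = 5 each; log2 fold change -0.01 ± 0.21, adjusted p = 0.985).

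The smallest p in this comparison were those of Derl1 and Eif2ak3. Derl1 averaged 169 ± 28.2 CPM in cFGF23-Hyp and 147 ± 1.55 CPM in Hyp (SD, n = 5 each; 0.20 ± 0.10, adjusted p = 0.483), and its cFGF23-Hyp range enclosed that of Hyp. Eif2ak3 averaged 40.0 ± 4.10 CPM in cFGF23-Hyp and 45.4 ± 3.82 CPM in Hyp (-0.18 ± 0.09, adjusted p = 0.496). Of the 7 degradation genes, 5 were positive (median 0.19), with Herpud1 at 0.34 ± 0.22 (adjusted p = 0.568) and Derl2 at 0.19 ± 0.11 (adjusted p = 0.545). Xbp1 had -0.25 ± 0.21 (adjusted p = 0.651). Among the ATF4 and CHOP targets, Ddit3 had 0.39 ± 0.26 (adjusted p = 0.578) and Asns -0.42 ± 0.31 (adjusted p = 0.614). Without cFGF23-Hyp_3, Manf had -0.24, against 0.19 with all libraries, and Pdia6, another disulphide isomerase, -0.11, against 0.06.

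In cFGF23-Hyp against WT, which shares its libraries with both other comparisons, 0 members were called by edgeR, DESeq2 or limma-voom and 0 had an unadjusted p below 0.05, against 3.44% of all genes higher and 2.29% lower. Here 0% of all genes were called higher and 0% lower. Of the 32 members, 26 had negative log2 fold changes (median -0.16, and 0.02 over all genes), 14 of the 15 chaperones among them. Dnajb9, which restrains IRE1, was the exception, at 0.01 ± 0.17 (adjusted p = 0.999). The groups overlapped in all 32 members, while 0.247% of all genes lay wholly higher and 0.241% wholly lower. Sdf2l1 had -0.54 ± 0.26 (adjusted p = 0.891), Hyou1 -0.38 ± 0.19 (adjusted p = 0.894) and Pdia3 -0.21 ± 0.10 (adjusted p = 0.869). Without WT_5, cFGF23-Hyp_5 and cFGF23-Hyp_3, 2 members were called lower in cFGF23-Hyp than in WT, Pdia6 (-0.44 ± 0.10, adjusted p = 0.0369) and Dnajb11 (-0.44 ± 0.11, adjusted p = 0.0370), where 1.8% of all genes were. In that fit Pdia3, Pdia6, Dnajb11 and Edem1 had groups that did not overlap, against 8.01% of all genes. Both called genes were highest among cFGF23-Hyp mice in cFGF23-Hyp_3.

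The spread between mice of 1 group was set beside the gaps between group means. All 15 libraries were used here, WT_5 and cFGF23-Hyp_5 in the groups of their titles. The SD of log2 CPM within a group was a median 0.25 over the members and 0.24 over all genes. In 19 of 32 members the widest gap between 2 group means was smaller than this SD, and in 13 it was larger. By role the median SD was 0.24 in the chaperones, 0.18 in the degradation genes, 0.17 in the sensors and transcription factors and 0.47 in the ATF4 and CHOP targets. Canx was the steadiest member (0.10) and Chac1 the least steady (0.85), with a gap between groups of 0.13 and 0.46. Pdia3 had a gap of 0.30 and an SD of 0.16.

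**Figure D3:**
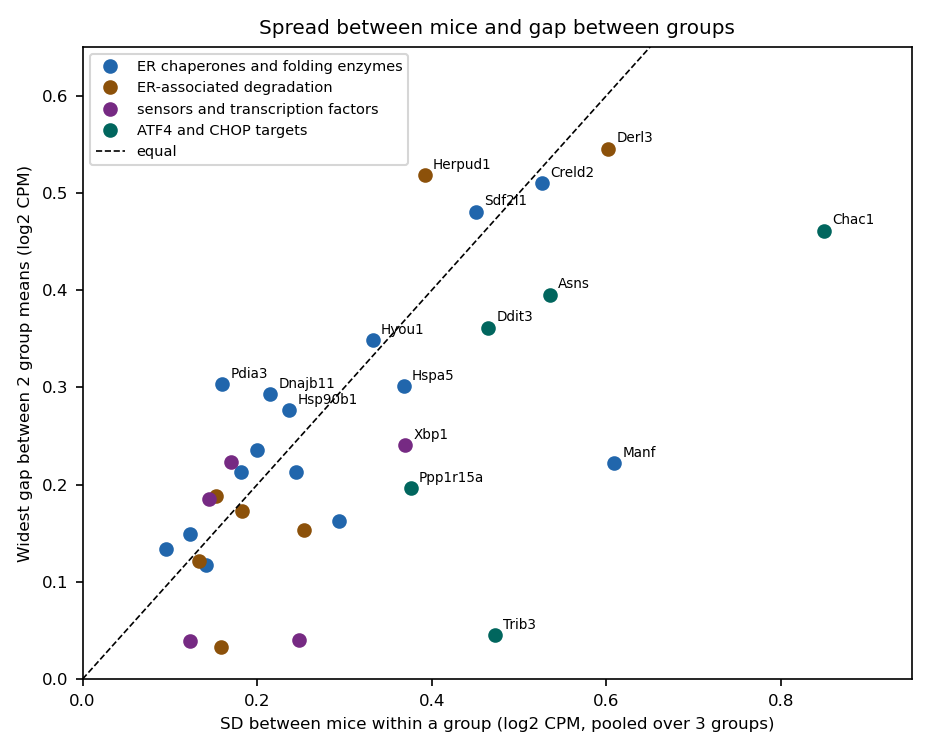
Widest gap between 2 group means (vertical axis) against the SD between mice within a group (horizontal axis), both in log2 CPM, for each member, coloured by role, with a dashed line where they are equal. In 19 members the point lies below the line, and Chac1, Manf and Trib3 lie furthest below it.

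In each group the same mouse tended to be highest across the chaperones. WT_4 had the highest CPM of its group in 21 of the 32 members, Hyp_3 in 23 and cFGF23-Hyp_3 in 20. Over the 15 chaperones these mice were highest in 14, 14 and 11 genes, at a median 1.38, 1.39 and 1.23 times the median of the other 4 mice of their group. WT_4 was the highest of all 15 mice in 15 members. Hyp_2 was the lowest of its group in 18 members. The same shares over all genes were not counted. Over all genes, the counts of cFGF23-Hyp_3 differed from those of its group by a chi-square of 67.9 to 74.51 per degree of freedom. Other pairs of that group differed by 14.55 to 28.17. The part of this general difference in the chaperone values was not tested.

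The ratio differed between members and between these mice. In WT_4, Derl3 was at 2.375, Creld2 at 2.10, Sdf2l1 at 2.10, Herpud1 at 2.05 and Manf at 1.999 times the median of the other WT mice, against 1.13 for Canx. In Hyp_3, Derl3 was at 2.444, Creld2 at 1.97 and Canx at 1.04 times the median of the other Hyp mice, though Derl3 is a low gene. In cFGF23-Hyp_3 the ratio was 2.97 for Manf, 1.85 for Trib3 and 1.23 for Herpud1. There Manf was at 198 CPM, where the other cFGF23-Hyp mice were at 50.2 to 101 CPM. The sensors and transcription factors were mixed. Of the 5, 1 was the highest of its group in cFGF23-Hyp_3, 3 in Hyp_3 and 2 in WT_4, while 3, 0 and 2 were the lowest. Eif2ak3 was at 34.2 CPM in cFGF23-Hyp_3 and 35.9 CPM in WT_4, the lowest of each group, and at 50.2 CPM in Hyp_3, the highest of its group. Xbp1 was highest of its group in WT_4 and in Hyp_3 but not in cFGF23-Hyp_3. The labels give no sex, cage, date or time of day that could be set beside this pattern.

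By average score, the ATF4 and CHOP targets ordered the mice differently from the chaperones. Scores were taken as the average, over the genes of a role, of the log2 CPM less the gene's own average in the 15 mice. The chaperones had their highest values in WT_4 (0.61), WT_2 (0.28), cFGF23-Hyp_3 (0.27) and Hyp_3 (0.25). The same score of the ATF4 and CHOP targets was highest in WT_3 (0.49), Hyp_4 (0.37) and WT_5 (0.35), and it was -0.47 in WT_2. Chac1 stood at 0.253 CPM in cFGF23-Hyp_3, its group's lowest, where the other 4 targets were at their group's highest. Chac1, at most 2.04 CPM in any library, deviated from its own average by -1.39 in cFGF23-Hyp_3, 1.14 in WT_3 and 1.00 in WT_5. These values of a low gene weigh on the order of the target score, which was not taken without Chac1.

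**Figure D4:**
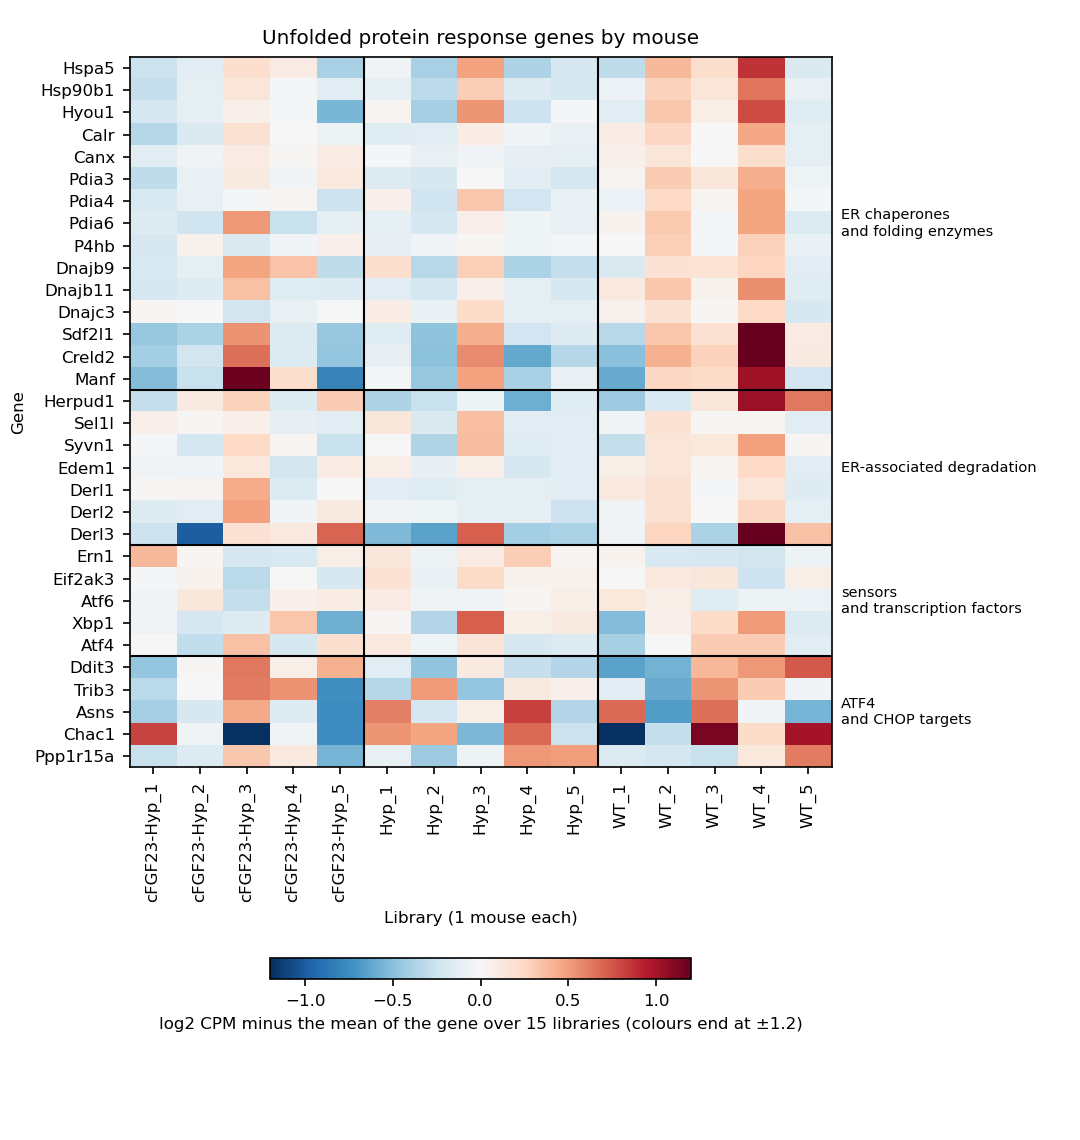
Log2 CPM of each member (rows, grouped by role) in each library (columns: cFGF23-Hyp, Hyp, WT), less that gene's average over all 15. Red is above and blue below that average. Of the 15 chaperones, 12 are above their average in cFGF23-Hyp_3, 14 in Hyp_3, 15 in WT_4 and 15 in WT_2, while of the 5 ATF4 and CHOP targets 4, 2, 4 and 0 are.

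Heat shock genes, which encode chaperones of the cytosol and mitochondria, had estimates of the same sign as the ER chaperones. All 15 heat shock genes had negative log2 fold changes in Hyp against WT (median -0.52), with 8 of them at an unadjusted p below 0.05, where 5.85% of all genes were lower at that threshold, and 0 called. Their summed level was 4541 to 7078 CPM in Hyp and 5526 to 9862 CPM in WT. In cFGF23-Hyp against Hyp, 14 of the 15 were positive (median 0.22), with 4761 to 8285 CPM in cFGF23-Hyp. Their score was highest in WT_4 (0.87) and lowest in Hyp_2 (-0.55), which were also the extremes for the ER chaperones (0.61 and -0.27). The 2 scores had opposite signs in cFGF23-Hyp_5 (0.595 for heat shock, -0.226 for ER chaperones) and in WT_5 (0.113 and -0.0952). They had the same sign in every other mouse. The part of heat shock genes in the ER chaperone values was not tested.

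Markers of other cells were read beside these levels, since plasma cells, for example, are rich in ER chaperones. Of 14 B and plasma cell markers 9 were tested, and 8 of these had positive log2 fold changes in Hyp against WT (median 1.60), with Jchain called (adjusted p = 0.0478). The summed level of the list was 57.6 to 282 CPM in cFGF23-Hyp, 212 to 534 CPM in Hyp and 66.5 to 173 CPM in WT. Jchain was highest of all in Hyp_3 (76.5 CPM), the Hyp mouse with the highest chaperones. It was at 17.0 CPM in WT_4, the mouse with the highest chaperone score of all. Hyp_4 and Hyp_5, with chaperone scores of -0.21 and -0.15, had 52.3 and 55.3 CPM. Tnfrsf17 and Ms4a1 were at 0 in 7 libraries each. Macrophage markers summed to 99.7 to 171 CPM in cFGF23-Hyp, 150.1 to 158 CPM in Hyp and 126 to 137 CPM in WT. Fibroblast markers summed to 132 to 278 CPM in cFGF23-Hyp, 225 to 267 CPM in Hyp and 180.2 to 236 CPM in WT. The lowest macrophage and fibroblast sums of cFGF23-Hyp were those of cFGF23-Hyp_5. The highest B and plasma cell sum of WT was that of WT_5. The part of these cells was not tested.

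Beyond the 32 members, 0 genes of 5 further lists of the pathway were called in any comparison. At an unadjusted p below 0.05 in Hyp against WT there were 1 to 4 genes a list. In Hyp against WT, 14 of 19 other ER folding genes were negative (median -0.10), 17 of 19 other degradation genes (-0.08) and 15 of 19 genes of the translocon and signal peptide processing (-0.10). Other genes of the integrated stress response were mixed, with 13 of 24 positive (0.02), as were other sensors and regulators, with 7 of 14 positive (-0.02). Erp44, which retains unassembled proteins, averaged 75.3 ± 4.70 CPM in Hyp and 93.8 ± 9.26 CPM in WT (SD, n = 5 each; -0.32 ± 0.09, adjusted p = 0.150). Sec11a, a catalytic subunit of signal peptidase, averaged 93.6 ± 8.44 CPM in Hyp and 137 ± 35.8 CPM in WT (-0.55 ± 0.15, adjusted p = 0.135). Sesn2, a stress-induced inhibitor of mTORC1, averaged 71.2 ± 10.9 CPM in Hyp and 46.4 ± 11.1 CPM in WT (0.62 ± 0.17, adjusted p = 0.135). Shmt2, of mitochondrial folate metabolism, averaged 218 ± 16.8 CPM in Hyp and 287 ± 24.8 CPM in WT (-0.40 ± 0.10, adjusted p = 0.107).

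Sil1, a nucleotide exchange factor for BiP, had -0.34 ± 0.12 (adjusted p = 0.241), Nploc4, a cofactor of the extracting ATPase, -0.13 ± 0.06 (adjusted p = 0.347) and Vcp, that ATPase, -0.17 ± 0.10 (adjusted p = 0.495). Sec23b, a coat protein of vesicles that leave the ER, had -0.16 ± 0.08 (adjusted p = 0.397). The kinase gene Eif2ak4 (GCN2) had 0.34 ± 0.13 (adjusted p = 0.264) and Ppp1r15b, a phosphatase subunit that acts on the same factor as GADD34, -0.15 ± 0.08 (adjusted p = 0.436). In cFGF23-Hyp against Hyp, 14 of 19 other ER folding genes were positive (median 0.12), 14 of 19 other degradation genes (0.05) and 13 of 19 translocon genes (0.09). In cFGF23-Hyp against WT these lists had 10, 9 and 6 positive genes of 19 each, with medians of 0.01, -0.01 and -0.01.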

How the data were processed

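RNA from whole kidney of 15 mice (5 cFGF23-Hyp, 5 Hyp, 5 WT, grouped by sample title) was sequenced with an NEBNext Ultra library kit, per the labels' protocols, which do not say whether strand was kept. The authors deposited raw counts per gene and library in 2 tables (WT and Hyp libraries in one, Hyp and cFGF23-Hyp in the other). They also hold the authors' log2 fold change, and the authors' p-value with its adjusted form. No source used here names the aligner, counter, annotation or test of the authors. Per the submitters' processing notes the build was mm10, but positions in the deposited tables do not match GRCm38 (the Hspa5 gene starts at 34661982 there, while its GRCm38.p6 promoter window is 34771840 to 34772139), so these positions are not combined. The 40 columns of normalized per-sample values were not used.

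The tables list 28216 and 28110 genes and share 27122. Entries without a gene name (299, 0.219% to 0.363% of the counts of a library) were left out of library sizes and tests. Counts were tested with edgeR 4.0.16 in R 4.3.3 (TMM scaling, filterByExpr, quasi-likelihood F test, 1 fit of all 15 libraries with a mean per group), with Benjamini-Hochberg adjustment over 15789 genes and a threshold of 0.05. All adjusted p-values come from this test unless another tool or the authors' table is named. SE values are |log2 fold change| / √F. CPM uses TMM-scaled library sizes, and log2 CPM a prior count of 2. Reads carry no molecular identifiers, and errors over mice include counting error. Any 2 libraries of a group differed by a chi-square of at least 8.98 per degree of freedom, so no group held a duplicate. Libraries of different groups were not compared in this way. The script was tested on simulated data.

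Members, gene lists (206 entries in 16 lists, of which 5 did not match) and tests were chosen with earlier results of these data known, so the lists get counts and medians but no test. All 32 members are named, and from each further list the 2 genes with the smallest p in Hyp against WT. Promoter windows and their sequences are from RefSeq (GRCm38.p6), matched by symbol. Mice with the same replicate number were not treated as pairs: the labels do not say so, and deviations from group means correlated above 0.1 in 4 of 15 such pairs. The labels name no batch. Alternatives were DESeq2's size factors, DESeq2 1.42.0, limma-voom (limma 3.58.1), 2 other filters, fits of 2 groups, a replicate block, WT_5 placed in Hyp, libraries in doubt left out, the trend with gene length removed (medians only), and each library left out in turn.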

Additional observations from a re-analysis of the deposited data

Results flagged for a closer look

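In 6 of 96 sets of 5 values (32 members in 3 groups), 1 mouse stood apart from the other 4 of its group, with a gap to the nearest over 0.71 of the whole range of the group. Chance gives such a gap in about 1 of 20 groups. The mouse was cFGF23-Hyp_3 in 5 sets and Hyp_3 in 1, and it was the highest of its group each time. In cFGF23-Hyp_3, Pdia6 was at 334.2 CPM, where the other cFGF23-Hyp mice were at 194.0 to 215.9 CPM. Dnajb11 was at 168.7 CPM, where the others were at 114.6 to 119.1 CPM. Derl1 was at 217.1 CPM, against 142.7 to 163.6 CPM in the others. Creld2 was at 96.62 CPM, against 44.12 to 54.46 CPM, and Sdf2l1 at 23.0 CPM, against 11.48 to 14.10 CPM. In Hyp_3, Derl3 was at 2.269 CPM, where the other Hyp mice were at 0.8109 to 0.9921 CPM. The library cFGF23-Hyp_3 also detected fewer genes than the other 14, with a lower mitochondrial share, and the part of this in the 5 values was not tested.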

How the results depend on the processing

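The count of members called was 0 in every comparison under DESeq2's size factors, DESeq2, limma-voom, both other filters, fits of 2 groups, the replicate block, WT_5 placed in Hyp, the fit without WT_5 and cFGF23-Hyp_5, and each library left out in turn (0 to 0). It changed in 1 setting, without WT_5, cFGF23-Hyp_5 and cFGF23-Hyp_3: 3 members in Hyp against WT and 2 in cFGF23-Hyp against WT. Members whose groups did not overlap in Hyp against WT numbered 4 without WT_5 and cFGF23-Hyp_5, all lower, against 7.06% of all genes. Without the 3 libraries they numbered 4, all lower, against 6.97% of all genes. They numbered 4 with WT_5 placed in Hyp and 0 to 4 with 1 library left out (4 without WT_5, 3 without Hyp_3). In cFGF23-Hyp against WT they numbered 4 without the 3 libraries, all lower, against 8.01% of all genes. In cFGF23-Hyp against Hyp they numbered 0 to 1 with 1 library left out (1 without cFGF23-Hyp_4). The share of all genes was not counted for WT_5 placed in Hyp or for 1 library left out. Those counts are therefore not read as a result about the members. With 1 library left out, the median log2 fold change of the members ran from -0.22 to -0.09 in Hyp against WT, from -0.06 to 0.09 in cFGF23-Hyp against Hyp and from -0.24 to -0.06 in cFGF23-Hyp against WT. With the trend with gene length removed it was -0.17, 0.01 and -0.16. With the replicate block, which assumes a pairing that the labels do not give, 0 members were called and the medians were -0.17, 0.00 and -0.16. Among single genes, none of them called, the sign of cFGF23-Hyp against Hyp turned without the 3 libraries for Pdia3 (-0.0055), Pdia6 (-0.14) and Atf4 (-0.14), and without cFGF23-Hyp_3 alone for Pdia6 (-0.11 to 0.12 over the fits with 1 library left out) and Manf (-0.24 to 0.37). In cFGF23-Hyp against WT it turned without the 3 libraries for Derl1 (-0.14), Derl2 (-0.21) and Chac1 (0.0895), without cFGF23-Hyp_3 alone for Derl1 (-0.0807 to 0.0779) and Derl2 (-0.11 to 0.061), and without WT_5 and cFGF23-Hyp_5 for Ppp1r15a (0.14). The cause was not tested. For uncalled genes, 131 turns of sign within 1 SE were counted as no change. Low counts limit Trib3, Chac1 and Derl3, which were at most 1.18, 2.04 and 3.45 CPM, and 5 mice per group leave SEs of 0.07 to 0.51.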
